A study of Homo sapiens with 6 samples.

Results

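The genes described here are 10 genes of ferritin storage and iron handling: FTH1, FTL, TFRC, SLC40A1, SLC11A2, NCOA4, STEAP3, HMOX1, IREB2 and ACO1. They were chosen by symbol from a table of 24580 gene rows, and each symbol matched 1 row. Messenger RNA was measured by RNA sequencing in LoVo-HM, labelled as a high-metastatic subline of LoVo, and in wildtype LoVo, an established human colorectal cancer cell line. Each line had 3 libraries, neither line had a treatment per the labels, and no label says how the subline was derived, whether it is a single clone or whether the 3 libraries of a line came from separate cultures. The p-values therefore measure the spread between these libraries, which may be technical. Levels are FPKM (fragments scaled to transcript length and to library size).

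Iron enters most cells bound to transferrin through the transferrin receptor (TFRC). It is reduced in the endosome by STEAP3 and moved to the cytosol by the divalent metal transporter SLC11A2. Iron that is not used is stored in ferritin, a hollow shell of heavy chains (FTH1), which oxidise iron, and light chains (FTL), which help form the mineral core. NCOA4 carries ferritin to the lysosome for breakdown, SLC40A1 (ferroportin) exports iron from the cell, and HMOX1 releases iron from haem. The iron regulatory proteins ACO1 (IRP1) and IREB2 (IRP2) bind hairpins called iron-responsive elements in several of these messages when cellular iron is low. Binding in the 5′ UTR blocks translation, as in ferritin and ferroportin messages, and binding in the 3′ UTR protects the TFRC message from decay. Messenger RNA levels therefore carry only a part of the control of ferritin protein.

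The hairpins are shown because they are the elements that tie these messages to the same regulators. Human transcripts of GENCODE 29 (GRCh38) were searched for C, 5 bases, the loop CAGTGN with any last base but G, and 5 bases able to pair with the first 5. Sequences of FTH1 and HMOX1 were not analysed here. The loop is in capitals, and each line runs 5′ to 3′ on the transcript's strand, written with T.
FTL 5′ UTR, plus strand, chr19:48965335-48965363: ctcttgcttcaaCAGTGTttggacggaac
SLC40A1 5′ UTR, minus strand, chr2:189580661-189580689: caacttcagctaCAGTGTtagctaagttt
TFRC 3′ UTR, minus strand, chr3:196050979-196051007: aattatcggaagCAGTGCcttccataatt
TFRC 3′ UTR, minus strand, chr3:196050575-196050603: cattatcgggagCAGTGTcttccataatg
TFRC 3′ UTR, minus strand, chr3:196050510-196050538: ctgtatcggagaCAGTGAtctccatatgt
TFRC 3′ UTR, minus strand, chr3:196050463-196050491: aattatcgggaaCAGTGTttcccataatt

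FTL and SLC40A1 each held 1 such hairpin and TFRC held 4, in each of its 3 searched transcripts. Over the annotation 0.118% of genes with a searched 5′ UTR and 0.531% of genes with a searched 3′ UTR had a match. The other 5 members searched, SLC11A2, NCOA4, STEAP3, IREB2 and ACO1, had none by this pattern. The pattern allows no unpaired base among its 5 stem pairs, so it can miss elements. SLC11A2 is known to give some messages with an iron-responsive element, yet none was found here. A match is a description of the letters and not a measurement of binding.

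Library totals were 424624 to 428265 FPKM in LoVo-HM and 434108 to 439082 FPKM in LoVo, and read depth is unknown. Pearson correlations of log2(FPKM + 1) were 0.9947 to 0.9953 within a line and 0.9694 to 0.9704 between the lines, so no library stood apart from its line. Of 12 colorectal epithelial markers 7 were tested, and 5 of them rose while 2 fell, against 21.8% and 23.1% of all tested genes. The markers with the widest changes, named after their values were seen, were CDH1, KRT19 and KRT20. CDH1 (E-cadherin) fell to 7.50 to 8.15 FPKM in LoVo-HM, against 47.1 to 49.6 FPKM in LoVo (log2 difference -2.46). KRT19 rose to 378 to 400.5 FPKM in LoVo-HM, against 98.1 to 112 FPKM in LoVo (1.88). KRT20 had 2.39 to 3.30 FPKM in LoVo-HM, whereas all 3 LoVo libraries listed it at 0, so it was tested through its LoVo-HM values alone. EPCAM stood at 49.0 to 54.2 FPKM in LoVo-HM and 126 to 130 FPKM in LoVo. CDX2 stood at 13.7 to 15.6 FPKM in LoVo-HM and 8.28 to 8.53 FPKM in LoVo, and KRT8 at 1320 to 1376 FPKM in LoVo-HM and 1188 to 1216 FPKM in LoVo. VIL1 and GPA33 were listed at 0 in all 6 libraries. CDH17 reached at most 0.0361 FPKM, LGALS4 at most 0.245 FPKM and CEACAM5 at most 0.056 FPKM, and these were not tested either. The 8 fibroblast and endothelial markers summed to 4.78 to 5.82 FPKM in LoVo-HM and 4.84 to 6.39 FPKM in LoVo, with 2 at 0, and the 6 hepatocyte markers to at most 0.287 FPKM, with 3 at 0. In bulk RNA fewer cells of a type and less RNA per cell cannot be told apart.

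All 10 members had a mean of at least 0.5 FPKM and were tested with every other such gene, 14487 in all. Differences are LoVo-HM minus LoVo on the log2(FPKM + 1) scale ± SE, which understates the change of low genes, with limma's test and Benjamini-Hochberg adjusted p-values over all 14487 genes. Of the 10 members 4 rose in LoVo-HM (FTH1, FTL, HMOX1 and ACO1), 3 fell (SLC40A1, SLC11A2 and STEAP3) and 3 did not pass the threshold of 0.05 (TFRC, NCOA4 and IREB2). Of all tested genes 44.9% passed the threshold, 21.8% higher and 23.1% lower, so a gene that passed was common in this comparison. The members had a median log2 difference of 0.00, as did all tested genes. The members' values did not overlap between the lines in 8 of 10 genes, against 55% of all tested genes.

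**Figure D1:**
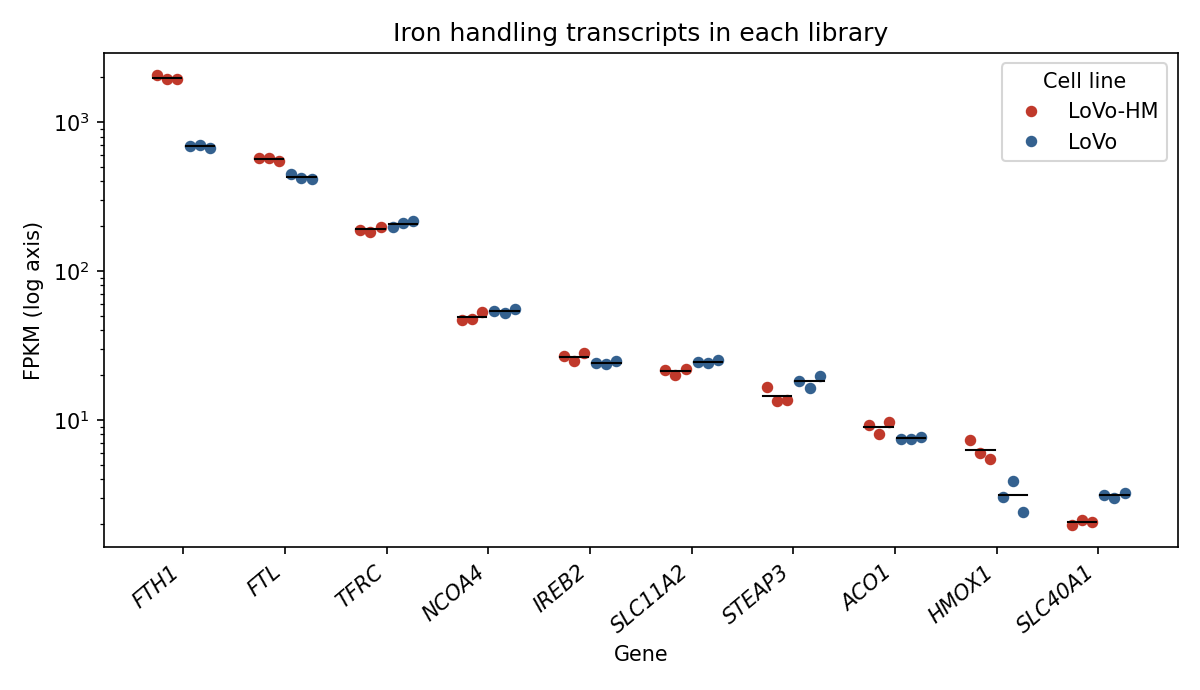
FPKM of the 10 genes in each library (log axis), with LoVo-HM libraries in red and LoVo libraries in blue and the black bar at the group mean (n = 3). FTH1 lies between 1941 and 2057 FPKM in LoVo-HM and between 666 and 706 FPKM in LoVo, a wider gap than for the other 9 genes on this axis.

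The ferritin heavy chain gene FTH1 (ENSG00000167996, chromosome 11, 61959718 to 61967660, minus strand) had 2057, 1941 and 1944 FPKM in LoVo-HM, against 692, 706 and 666 FPKM in LoVo. The libraries of each line lay close together and the lines did not overlap. FTH1 rose 2.88-fold in mean FPKM (1981 ± 66.4 in LoVo-HM and 688 ± 20.3 in LoVo, SD, n = 3 each), a log2 difference of 1.52 ± 0.039 (limma adjusted p = 1.32e-08). Of all tested genes 3.13% had a log2 difference at least as far from 0. In order of FPKM, FTH1 was the 15th row of the table in each LoVo-HM library, and the 57th, 54th and 53rd in LoVo. It made up 0.456 to 0.480% of the summed FPKM of a LoVo-HM library and 0.154 to 0.162% of a LoVo library.

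The light chain gene FTL (ENSG00000087086, chromosome 19, 48965301 to 48966878, plus strand) had 575, 572 and 551 FPKM in LoVo-HM, against 450, 423 and 416 FPKM in LoVo. Every LoVo-HM library was above every LoVo library, by a smaller margin than for FTH1. FTL rose 1.32-fold in mean FPKM (566 ± 13.0 in LoVo-HM and 430 ± 18.0 in LoVo, SD, n = 3 each), with a log2 difference of 0.40 ± 0.041 (limma adjusted p = 8.73e-05). GENCODE 29 annotates 25 pseudogene copies of FTH1 and 16 of FTL, and the sources used here do not give how the authors assigned fragments that match several loci. The level of each chain is therefore uncertain by the share of fragments that such copies took or gave. The FTH1 gene also overlaps BEST1 on the opposite strand, which stood at 5.39 to 18.4 FPKM in LoVo-HM and 4.47 to 5.996 FPKM in LoVo, far below FTH1.

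Because both chains build the same shell, their balance was compared within each library, where library scaling cancels. The ratio of FTH1 to FTL was 3.58, 3.40 and 3.53 in LoVo-HM, against 1.54, 1.67 and 1.601 in LoVo. The heavy chain message outweighed the light chain message in both lines, and the excess was larger in every LoVo-HM library. The log2 ratio differed by 1.13 (exact permutation test over libraries, two-sided, p = 0.1, the smallest that 3 against 3 libraries allow). Summed ferritin message, FTH1 plus FTL, was 2632, 2513 and 2495 FPKM in LoVo-HM, against 1142, 1129 and 1082 FPKM in LoVo, a log2 difference of 1.19 (exact permutation test, two-sided, p = 0.1).

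**Figure D2:**
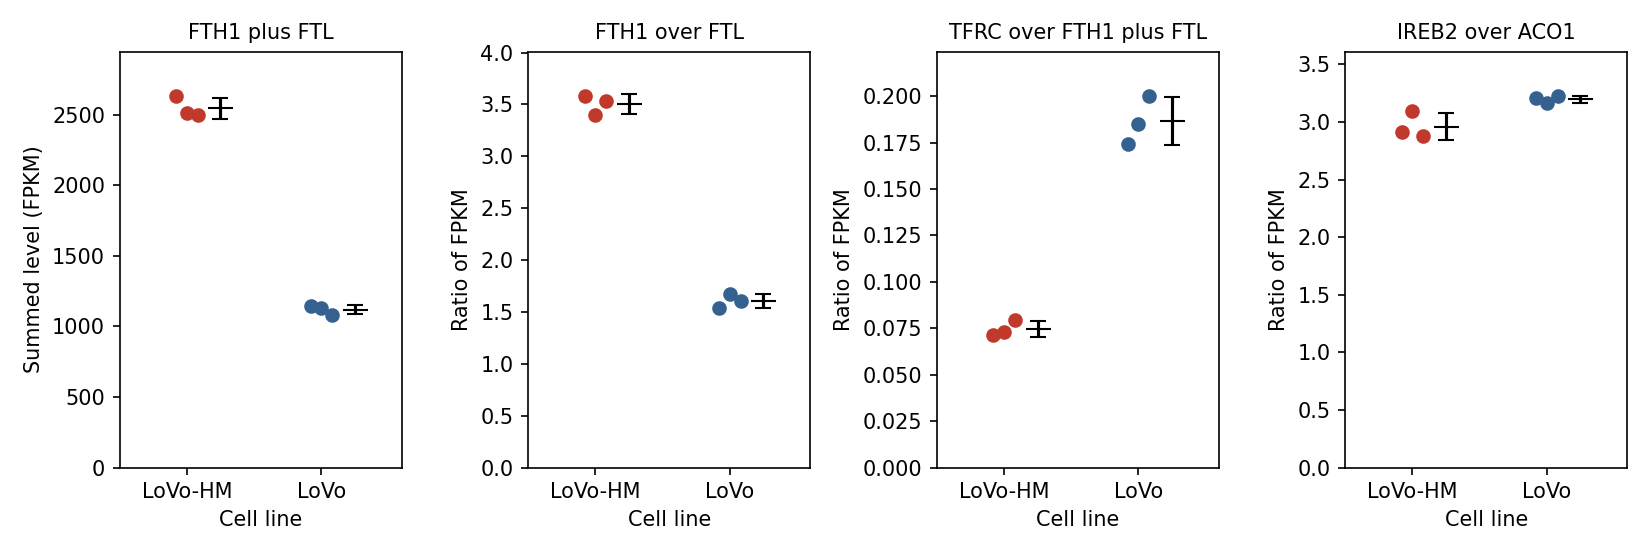
Values per library of the summed ferritin level (FPKM) and of 3 ratios of FPKM, with LoVo-HM left in red, LoVo right in blue, and black marks for the mean ± SD (n = 3). The lines are apart in each panel, by far in the first 3 and narrowly for IREB2 over ACO1, where LoVo-HM reached 3.09 and LoVo began at 3.17.

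The uptake genes did not share the direction of ferritin. TFRC, the transferrin receptor (ENSG00000072274, chromosome 3, 196027183 to 196082189, minus strand), had 188, 184 and 199 FPKM in LoVo-HM, against 199, 209 and 217 FPKM in LoVo. A processed pseudogene and an snRNA gene overlap it on the opposite strand. The highest LoVo-HM library (198.8 FPKM) lay just under the lowest LoVo library (199.1 FPKM). The log2 difference was -0.13 ± 0.047 and did not pass the test (limma adjusted p = 0.0523). It passed without LoVo-HM replicate 3 (adjusted p = 0.0261) and without LoVo replicate 1 (0.0379), and its adjusted p ranged from 0.0261 to 0.158 over 16 alternatives. Set against summed ferritin, TFRC stood at 0.0714, 0.0731 and 0.0797 in LoVo-HM and at 0.174, 0.185 and 0.200 in LoVo, a log2 difference of -1.32 (exact permutation test, two-sided, p = 0.1), beside which TFRC alone differed by -0.13 and summed ferritin by 1.19.

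SLC11A2, the endosomal and apical iron transporter DMT1 (ENSG00000110911, chromosome 12, 50979401 to 51028566, minus strand), had 21.5, 20.001 and 21.9 FPKM in LoVo-HM, against 24.5, 24.0 and 25.2 FPKM in LoVo. The lines did not overlap, and the gene fell by 0.21 ± 0.055 on the log2 scale (limma adjusted p = 0.0147). Without LoVo replicate 3 its adjusted p was 0.051. SLC11A2 is known to give messages with and without an iron-responsive element in the 3′ UTR, and a level per gene does not separate them.

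STEAP3, the endosomal ferrireductase (ENSG00000115107, chromosome 2, 119223831 to 119265652, plus strand), had 16.7, 13.5 and 13.6 FPKM in LoVo-HM, against 18.4, 16.5 and 19.7 FPKM in LoVo. The highest LoVo-HM library lay above the lowest LoVo library, so the lines overlapped. It fell by 0.30 ± 0.095 on the log2 scale (limma adjusted p = 0.0301). This call was lost without LoVo-HM replicate 2 (adjusted p = 0.0943) or 3 (0.0888) and without LoVo replicate 1 (0.076) or 3 (0.097). An antisense gene, STEAP3-AS1, lies within it, and the sources used here do not say whether the counting used strand.

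The exporter SLC40A1 (ENSG00000138449, chromosome 2, 189560579 to 189583758, minus strand) was the lowest of the 10 genes in LoVo-HM. It had 1.98, 2.13 and 2.06 FPKM in LoVo-HM, against 3.14, 2.99 and 3.25 FPKM in LoVo. The LoVo-HM libraries all lay below the LoVo libraries, and the gene fell by 0.43 ± 0.081 on the log2 scale (limma adjusted p = 0.00264). Its mean FPKM in LoVo-HM was 0.657 of that in LoVo, a larger relative change than the log2(FPKM + 1) scale shows. Macrophages are known for high ferroportin, and the 8 macrophage and leukocyte markers summed to 2.56 to 3.06 FPKM in LoVo-HM and 3.62 to 3.77 FPKM in LoVo, with PTPRC, CD163 and MARCO at 0 in all 6 libraries. Nearly all of that sum was CD68, a lysosomal protein gene and the only tested marker of the list, named after its values were seen. CD68 fell too, to 2.42, 2.86 and 2.38 FPKM in LoVo-HM, against 3.41, 3.48 and 3.42 FPKM in LoVo (log2 difference -0.32 ± 0.086, limma adjusted p = 0.015). A link between CD68 and SLC40A1 was not tested.

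HMOX1, the inducible haem oxygenase (ENSG00000100292, chromosome 22, 35380361 to 35394214, plus strand), had 7.35, 6.02 and 5.47 FPKM in LoVo-HM, against 3.05, 3.89 and 2.40 FPKM in LoVo. Its spread within each line was wide for its level, yet the lines did not overlap. It rose 2.02-fold in mean FPKM (6.28 ± 0.971 in LoVo-HM and 3.11 ± 0.750 in LoVo, SD, n = 3 each), a log2 difference of 0.83 ± 0.146 (limma adjusted p = 0.00184).

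NCOA4, the receptor that takes ferritin to the lysosome (ENSG00000266412, chromosome 10, 46005088 to 46030714, minus strand), had 47.1, 47.7 and 53.1 FPKM in LoVo-HM, against 53.6, 51.9 and 55.4 FPKM in LoVo. GENCODE 29 annotates 3 pseudogene copies of it. The lines overlapped, since LoVo-HM replicate 3 lay above LoVo replicate 2. The log2 difference of -0.12 ± 0.057 did not pass the test (limma adjusted p = 0.118). Without LoVo-HM replicate 3 it did (adjusted p = 0.0225), and over 16 alternatives the adjusted p ranged from 0.0225 to 0.311.

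Of the iron sensors, IREB2 (ENSG00000136381, chromosome 15, 78437431 to 78501456, plus strand) had 26.9, 24.994 and 28.05 FPKM in LoVo-HM, against 23.99, 23.7 and 24.967 FPKM in LoVo. The lowest LoVo-HM library and the highest LoVo library were almost level. The log2 difference of 0.13 ± 0.057 did not pass the test (limma adjusted p = 0.0978), but it did without LoVo-HM replicate 2 (0.0423), within a range of 0.0423 to 0.233 over 16 alternatives. An antisense gene overlaps IREB2 as well.

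ACO1, which is a cytosolic aconitase when it holds an iron-sulfur cluster and an RNA-binding protein when it does not (ENSG00000122729, chromosome 9, 32384603 to 32454769, plus strand), had 9.24, 8.08 and 9.74 FPKM in LoVo-HM, against 7.48, 7.50 and 7.74 FPKM in LoVo. The lines did not overlap, and the LoVo-HM libraries were more spread. It rose by 0.22 ± 0.077 on the log2 scale (limma adjusted p = 0.0452). The call was lost without any library except LoVo-HM replicate 2, at adjusted p = 0.124 and 0.129 without LoVo-HM replicates 1 and 3, and at 0.104, 0.107 and 0.0766 without LoVo replicates 1, 2 and 3. The ratio of IREB2 to ACO1 was 2.91, 3.09 and 2.88 in LoVo-HM, against 3.21, 3.17 and 3.23 in LoVo, a log2 difference of -0.11 (exact permutation test, two-sided, p = 0.1).

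**Figure D3:**
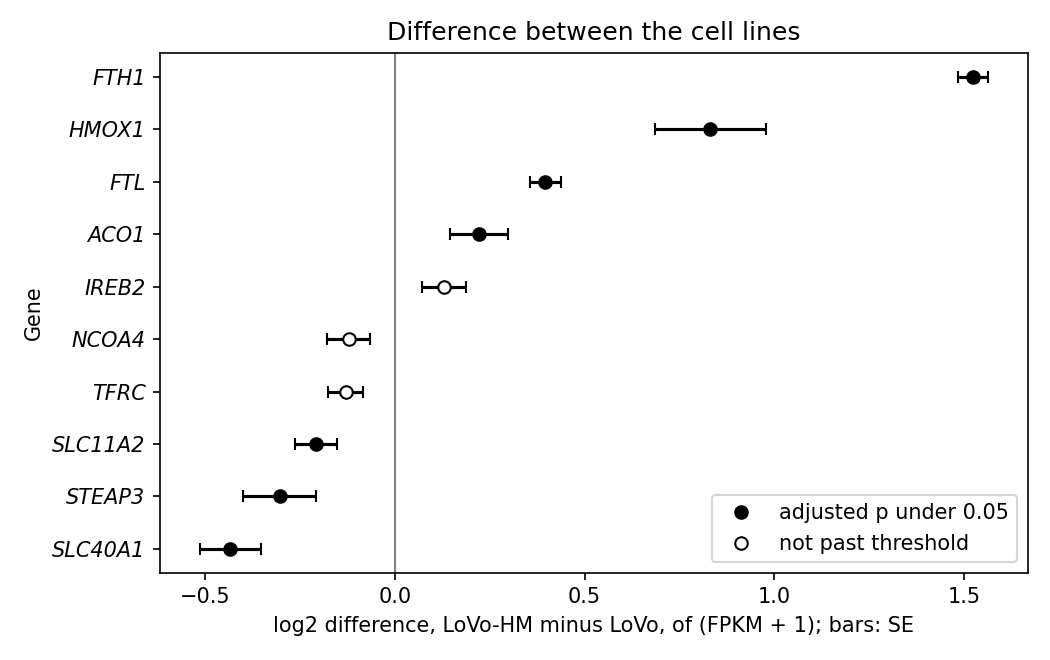
Log2 difference of (FPKM + 1), LoVo-HM minus LoVo, for each of the 10 genes, with bars for the SE from limma and filled points for an adjusted p under 0.05. FTH1 stands at 1.52, HMOX1 at 0.83 and FTL at 0.40, and the other 7 genes lie between -0.43 and 0.22.

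The order of levels, which FPKM allows across genes, was FTH1, FTL, TFRC and NCOA4 from the top in both lines. Below these came IREB2, SLC11A2, STEAP3, ACO1, HMOX1 and SLC40A1 in LoVo-HM, with no overlap between neighbours. In LoVo the order was SLC11A2, IREB2, STEAP3, ACO1, SLC40A1 and HMOX1. There SLC11A2 and IREB2 overlapped, as did SLC40A1 and HMOX1. The patterns most like that of FTH1 over the 6 libraries, by Euclidean distance of centred log2(FPKM + 1) values among genes averaging 20 FPKM or more, were those of CYTH3 (distance 0.14), PPME1 (0.16) and ANK1 (0.16). Those nearest FTL were WDR34 (0.054), RBFA (0.0561) and SH3BP4 (0.0595). With the libraries of a line close together, this distance mainly picks genes with a similar difference between the lines. The log2 differences were 1.43 to 1.47 for the genes near FTH1 and 0.37 to 0.38 for those near FTL. Shared regulation was not tested.

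Other genes of iron and haem metabolism were taken from 9 lists of 119 genes, all with a row in the table, of which 104 were tested. Of these 21 rose (20.2%), 31 fell (29.8%) and 52 did not pass the threshold, against 21.8% and 23.1% of all tested genes. With each library left out 13 to 20 rose (13 without LoVo replicate 2) and 25 to 28 fell. Without LoVo replicate 2 fewer of all tested genes rose too, 2601 against 3161 with every library kept. The same shares of all tested genes are the background for the count of each list below. The lists were chosen with earlier results of these data known. The first 2 genes of each list and its 2 genes with the smallest p are named, and any other gene was named after its values were seen.

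Of 12 tested genes in the uptake list 0 rose and 6 fell (50%), against 21.8% higher and 23.1% lower of all tested genes. The median log2 difference was -0.22, against 0.00 for all tested genes, and with each library left out 5 or 6 fell. The other 6 did not pass. STEAP1 and the metalloreductase STEAP2 fell. STEAP1 had 2.79, 3.52 and 3.06 FPKM in LoVo-HM, against 14.2, 12.9 and 12.5 FPKM in LoVo (log2 difference -1.79 ± 0.088, limma adjusted p = 7.48e-07). STEAP2 had 2.37, 1.72 and 1.72 FPKM in LoVo-HM, against 4.81, 4.65 and 4.58 FPKM in LoVo. The other genes that fell were named after their values were seen. They were the siderophore-binding lipocalin LCN2 (-1.56), the metal transporter SLC39A8 (-0.61), the ferric reductase CYBRD1 (-0.42) and the haem transporter SLC48A1 (-0.25). LCN2 had 0, 0.364 and 0 FPKM in LoVo-HM, against 1.83, 2.97 and 2.11 FPKM in LoVo. Its LoVo-HM mean lay under the 0.5 FPKM filter, so LCN2 was tested through its LoVo values alone. The second transferrin receptor TFR2 did not pass (-0.10 ± 0.107, limma adjusted p = 0.48), and transferrin itself (TF) was at most 0.00592 FPKM in LoVo-HM, against 0.00744 FPKM in LoVo.

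Among 5 tested genes of export and the hepcidin axis 2 rose and 1 fell, and the count that rose was 1 without LoVo-HM replicate 2 or 3 and without LoVo replicate 1 or 2, and also with no filter on low values. ABCG2, a transporter of porphyrins and many drugs, rose to 58.7, 58.5 and 61.4 FPKM in LoVo-HM, against 5.84, 5.13 and 6.25 FPKM in LoVo (log2 difference 3.17 ± 0.070, limma adjusted p = 5.48e-09). BMP6, which induces hepcidin in the liver, fell by 0.55 ± 0.080 (limma adjusted p = 0.000658). The ferroxidases that act beside ferroportin were at or near 0 FPKM, with HEPH at most 0.0271 FPKM and CP listed at 0 in every library.

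The ferritin relatives FTMT and FTHL17 were listed at 0 in all 6 libraries. Of the 6 tested iron chaperones and partners 3 rose and 1 fell. The count that rose was 1 without LoVo-HM replicate 1 or 2 and without LoVo replicate 1, and also with no variance trend. The count that fell was 2 without LoVo replicate 2 or 3, and also with a filter at 2 FPKM, robust variance or a replicate block. PCBP3, low in both lines, rose by 0.53 ± 0.115 (0.936 ± 0.156 FPKM in LoVo-HM against 0.338 ± 0.0783 FPKM in LoVo, SD, n = 3 each). Its LoVo mean lay under the 0.5 FPKM filter, so PCBP3 was tested through its LoVo-HM values alone. GLRX3, a glutaredoxin that binds iron-sulfur clusters, fell by 0.45 ± 0.085.

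Of 21 genes of mitochondrial iron and iron-sulfur assembly 3 rose, 7 fell and 11 did not pass. With each library left out 5 or 6 fell, and the count that rose was 2 without LoVo replicate 3, 1 without any LoVo-HM replicate or LoVo replicate 1, and 0 without LoVo replicate 2. It was 1 with no filter on low values. The scaffold gene ISCU fell to 40.4, 42.0 and 40.2 FPKM in LoVo-HM, against 55.2, 57.3 and 52.3 FPKM in LoVo (-0.42 ± 0.050, limma adjusted p = 0.000199). BOLA3, a late-acting assembly factor, fell by 0.67 ± 0.096. The mitochondrial iron importers SLC25A37 (0.11 ± 0.078, limma adjusted p = 0.299) and SLC25A28 (-0.07 ± 0.089, limma adjusted p = 0.526) did not pass. In the cytosolic assembly list of 11 tested genes 1 rose and 2 fell, CIAO2A by 0.37 ± 0.058 and NUBP1 by 0.35 ± 0.062, and the count that rose was 2 without LoVo-HM replicate 3 and with rescaling to equal totals or quantile normalization. CIAO1 did not pass (0.03 ± 0.058).

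In haem synthesis and breakdown 2 of 14 tested genes rose and 4 fell, and the count that rose was 1 without LoVo-HM replicate 2 or LoVo replicate 3. The synthesis enzyme UROD rose by 0.36 ± 0.043 and CPOX, which acts next, fell by 0.31 ± 0.046. ALAS1, the first enzyme of the pathway, did not pass (0.01 ± 0.045, limma adjusted p = 0.851), and its erythroid form ALAS2 was at most 0.057 FPKM. Among regulators of the iron sensors and other messages reported to hold an iron-responsive element, 3 of 10 tested genes rose and 1 fell. Their count that rose was 0 without LoVo-HM replicate 1 or LoVo replicate 2, and 1 without LoVo-HM replicate 2 or LoVo replicate 3. FBXL5, which directs IREB2 protein to degradation, did not pass (0.12 ± 0.095, limma adjusted p = 0.346), nor did SKP1 (0.31 ± 0.200), for which LoVo replicate 1 was low at 27.1 FPKM against 48.2 and 51.2 FPKM in LoVo replicates 2 and 3. PFN2 fell by 0.22 ± 0.041, and HERC2 rose by 0.20 ± 0.054.

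NRF2 is known to activate ferritin and HMOX1 genes and BACH1 to repress them. Their list had 5 genes that rose and 5 that fell of 12 tested, with 5 higher and 4 or 5 lower when each library was left out. The activator gene NFE2L2 did not pass (43.3 ± 2.45 FPKM in LoVo-HM against 44.0 ± 0.570 FPKM in LoVo, SD, n = 3 each, limma adjusted p = 0.741), and its inhibitor KEAP1 rose by 0.22 ± 0.057. TXNRD1, a thioredoxin reductase and known NRF2 target, rose to 98.0, 93.2 and 98.1 FPKM in LoVo-HM, against 53.6, 53.0 and 52.1 FPKM in LoVo (0.85 ± 0.042, limma adjusted p = 7.53e-07). The small Maf gene MAFF fell by 0.91 ± 0.092. Named after their values were seen, the repressor BACH1 fell (4.82, 4.04 and 4.17 FPKM in LoVo-HM, against 7.45, 7.44 and 8.33 FPKM in LoVo), the NRF2 targets NQO1 (0.77), GCLM (0.70) and SLC7A11 (0.52) rose, and the targets SRXN1 (-0.40) and GCLC (-0.22) fell.

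In the ferritinophagy and ferroptosis list 2 of 13 tested genes rose and 4 fell, and 2 fell without LoVo-HM replicate 1 or LoVo replicate 1. TAX1BP1, an autophagy receptor known to act in ferritin breakdown, rose to 93.8, 89.98 and 91.5 FPKM in LoVo-HM, against 48.0, 50.1 and 51.8 FPKM in LoVo (0.86 ± 0.045, limma adjusted p = 1.16e-06). GABARAPL1, a protein of the autophagosome membrane, fell to 9.66, 10.98 and 10.7 FPKM in LoVo-HM, against 26.4, 27.9 and 26.7 FPKM in LoVo (-1.29 ± 0.063, limma adjusted p = 7.07e-07). ATG5 (0.03 ± 0.083) and ATG7 (0.07 ± 0.068) did not pass.

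**Figure D4:**
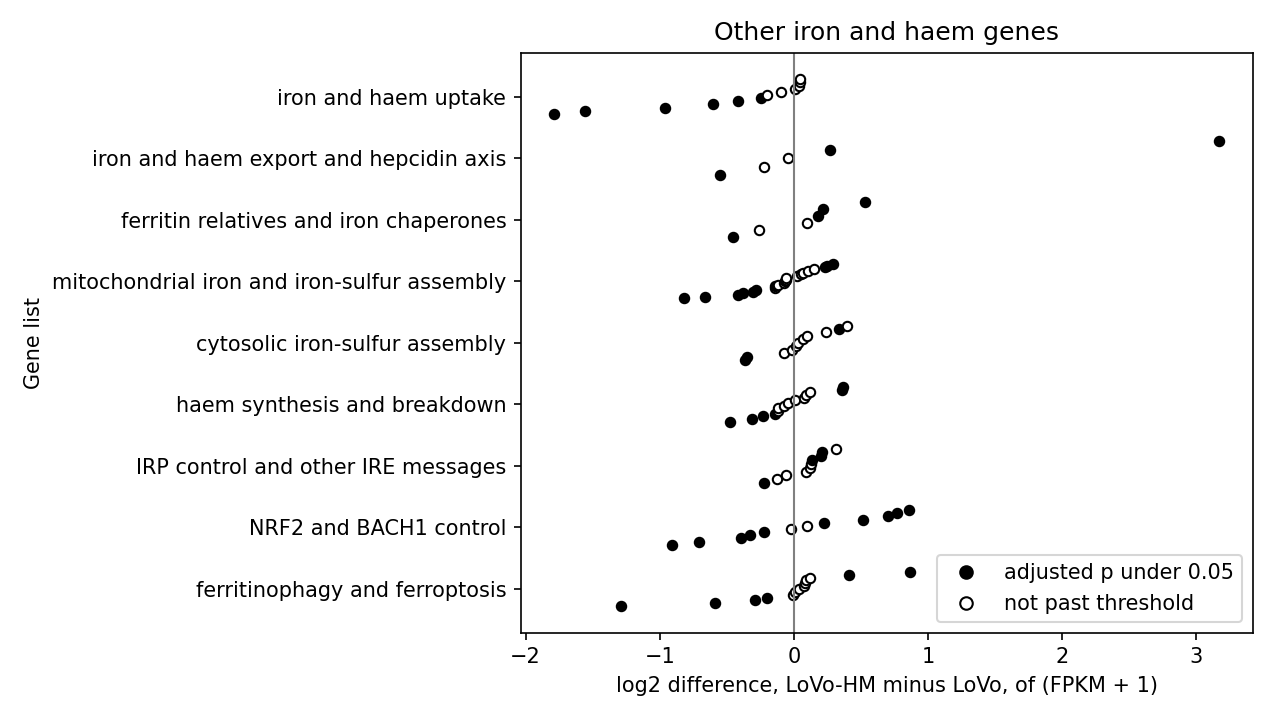
Log2 difference of (FPKM + 1), LoVo-HM minus LoVo, of the 104 tested genes in 9 lists of iron and haem metabolism, 1 point a gene, filled where the adjusted p was under 0.05. ABCG2 stands apart at 3.17, and the uptake list has filled points on the negative side alone.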

How the data were processed

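Trizol was used to extract the RNA and an Illumina TruSeq RNA kit to prepare the libraries, according to the labels. The authors deposited FPKM values of 6 libraries (3 LoVo-HM and 3 LoVo) in a single table. Per the submitters' processing notes the build was GRCh38. No aligner, counter, annotation, strand setting or read depth is given. Low values (under 0.3 FPKM, 1572 genes) showed no steps worth 1 read, since ratios between libraries did not pile up (at most 2.61% in any bin 0.05 log2 units wide), so no count model was used.

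The deposited FPKM values were taken as log2(FPKM + 1), and rows averaging 0.5 FPKM or more were tested (14487 of 24580). The lines were compared with limma 3.58.1 (R 4.3.3, variance trended on mean level), and Benjamini-Hochberg adjustment ran over all tested rows at a threshold of 0.05. Sums and ratios were compared by exact permutation of libraries. The members and lists were chosen with earlier results of these data known. All members were named, with the first 2 genes and the 2 smallest p of each iron list, the markers EPCAM, CDX2, KRT8 and PTPRC, and the 3 patterns nearest FTH1 and FTL. Every other gene was named after its values were seen. Positions and hairpins are from GENCODE 29. Hairpins were searched for the 8 members with an entry in the RefSeq promoter table. Alternatives were pseudocounts of 0.1 and 0.5, no filter, a filter at 2 FPKM, quantile normalization, rescaling to equal totals, median-ratio scaling, no trend, robust variance, a replicate block and leaving out each library.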

Additional observations from a re-analysis of the deposited data

How the results depend on the processing

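Under all 16 alternatives FTH1 (log2 difference 1.49 to 1.56), FTL (0.31 to 0.43), HMOX1 (0.70 to 1.00) and SLC40A1 (-0.58 to -0.32) kept their direction and passed the threshold, and no member changed direction. Of the 10 members 4 to 7 were called with each library left out (4 without LoVo replicate 3), 3 to 5 higher and 1 to 4 lower (1 without LoVo replicate 3). Over all genes 5484 to 5986 were called with a library left out. The log2 difference then ranged from 1.16 to 1.20 for summed ferritin, 1.10 to 1.16 for FTH1 over FTL, -1.36 to -1.27 for TFRC over ferritin and -0.14 to -0.09 for IREB2 over ACO1.

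Apart from left-out libraries, the ACO1 call was lost without a filter (adjusted p = 0.0686) and without a trend (0.0501), and the STEAP3 call without a filter (0.0673). TFRC passed with a filter at 2 FPKM (0.049), quantile normalization (0.0377) and robust variance (0.0497), and IREB2 after rescaling to the same total (0.0492). The causes were not tested. With the replicate number as a block 6459 genes and 8 members were called, TFRC among them (0.0301). Same-numbered libraries did not deviate together (correlations of -0.007, 0.022 and 0.026), and not every library correlated best with its own number. With 3 libraries a line this cannot settle whether same-numbered libraries shared a preparation, and the labels do not say what the number marks. Rescaling set each total to 1000000 FPKM with the pseudocount and filter unchanged, so both weighed less and 16261 genes were tested, against 14487. It moved the median of all tested genes to 0.03, and quantile normalization moved it to 0.04. Depth is unknown, so no detection limits are given.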

Other observations

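Alpha-globin genes, whose protein carries haem iron in red blood cells, were expressed in both lines, which was noted after the values were seen. HBA1 had 139, 148 and 131 FPKM in LoVo-HM, against 118, 104 and 110 FPKM in LoVo (log2 difference 0.33 ± 0.061, limma adjusted p = 0.00257). HBA2 had 112, 122 and 116 FPKM in LoVo-HM, against 94.7, 90.1 and 89.1 FPKM in LoVo (0.35 ± 0.047, limma adjusted p = 0.000401). The genes are near-identical, so the split between them is uncertain. The erythroid genes HBB, EPB42 and AHSP were listed at 0 in all 6 libraries.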
